A study of Mus musculus with 56 samples.

Results

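The first 4 h without food under nighttime-restricted feeding (NRF) were examined in mouse visceral adipose tissue (VAT), as the difference between NRF ZT4 and NRF ZT0. The comparison held 8 of the 56 VAT libraries of the series, 4 at each time point, taken by their labels. ZT, or zeitgeber time, counts hours from lights on. All mice were 9-week-old C57BL/6J females, a single strain and sex, kept under 12 h of light and 12 h of darkness and held on their feeding regimen for 7 days. NRF mice had food in the dark phase from ZT12 to ZT24, so that NRF ZT0 is the end of feeding at lights on and NRF ZT4 is 4 h into the light phase with no food. Another end-of-feeding group, NRF ZT24, came from 4 other mice. The other regimen, daytime-restricted feeding (DRF), gave food in the light phase. DRF ZT12 to ZT16 is therefore the onset of the daily fast in darkness, and DRF ZT0 to ZT4 covers the same hours as the NRF comparison but with food arriving. Each of these groups held 4 mice, with 1 library per mouse.

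When feeding stops, insulin falls, and white fat shifts from storing to releasing lipid. Synthesis of fatty acids and sterols is driven by the SREBP transcription factors and declines, whereas hormone-sensitive lipase and its partners break down stored triglyceride. Fat cells also hold a circadian clock. In that loop BMAL1 (encoded by Arntl) and CLOCK switch on the Per, Cry and Nr1d genes, the PER and CRY proteins repress BMAL1 and CLOCK, and the REV-ERB proteins encoded by Nr1d1 and Nr1d2 repress Arntl, Cry1 and Nfil3. In the early light phase of an animal fed at night, the fasting signal and the morning limb of the clock coincide, and the comparison within NRF alone cannot tell them apart.

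The 8 libraries held 34.8 to 40.1 M recovered reads on genes (M, 1000000 reads). Values are given as CPM (read counts per 1000000 of an effective library size recovered from the deposited values, 36.4 to 46.9 M in these libraries), compared within a gene, and differences are given on the log2(CPM + 1) scale, which understates changes of genes with few reads. In bulk tissue, fewer cells of a type and less RNA per cell cannot be told apart. Adipocyte markers were abundant in all 8 libraries, with Adipoq, the adiponectin gene, at 2480 to 3770 CPM. The summed level of 8 adipocyte markers was 29346 to 35616 CPM at ZT0 and 28863 to 43537 CPM at ZT4. All 13 marker lists overlapped between the groups. The 6 macrophage markers summed to 847 to 1043 CPM at ZT0 and 882 to 1474 CPM at ZT4, and the 6 progenitor markers to 3203 to 4441 CPM and 3781 to 5595 CPM. The 6 skeletal muscle markers summed to 20.5 to 104 CPM at ZT0 and 10.9 to 57.2 CPM at ZT4, and 4 of them (Ckm, Myh1, Myh4 and Tnnt3) averaged under 1 CPM. The part of these cells in the results was not tested.

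The libraries of a group differed from each other, and ZT0 replicate 1 stood apart from the other ZT0 mice. The first principal component took 47.7% of the variance of the 8 libraries. ZT0 replicate 1 lay at 19.4 on it, beside ZT4 replicate 3 at 32.1 and ZT4 replicate 4 at 18.2, whereas the other ZT0 libraries lay between -37.0 and -13.0 and ZT4 replicates 1 and 2 at 1.94 and -4.97. ZT0 replicate 1 also held the highest summed skeletal muscle level at ZT0, 104 CPM. ZT4 replicate 3 held 341 CPM of the 5 red cell and neutrophil markers, against 131 to 199 CPM in the other 7 libraries, and the part of these cells was not tested.

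At 4 h into the fast, 4 of 14129 genes (0.0283%) changed at a Benjamini-Hochberg adjusted p under 0.05 in limma, a linear model with moderated variance. Nr1d1 and Nr1d2 rose and Cry1 and Osgin1 fell, so that each direction held 0.0142% of the genes tested. At an unadjusted p under 0.05 there were 1728 genes, or 12.2% (833 higher, 5.9%, and 895 lower, 6.33%). Without ZT0 replicate 1, 22 genes passed (0.156%), 6 higher (0.0425%) and 16 lower (0.113%), and all 4 were among them.

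Nr1d1, which encodes the repressor REV-ERBα, was at 9.95, 9.95, 6.79 and 27.4 CPM in the 4 ZT0 mice and at 169, 142, 126 and 115 CPM in the 4 ZT4 mice. Every ZT4 mouse lay above every ZT0 mouse, and the highest ZT0 value was that of replicate 4. The mean rose 10.2-fold, from 13.5 ± 9.39 to 138 ± 23.1 CPM (SD, n = 4 each). The difference was 3.43 ± 0.33 (log2, SE), with an adjusted p of 0.00655 in limma. Nr1d2, its paralog encoding REV-ERBβ, was at 8.08, 5.40, 3.97 and 12.3 CPM at ZT0 and at 39.9, 47.4, 43.8 and 45.2 CPM at ZT4. The groups did not overlap, and the ZT4 mice lay close together. The difference was 2.51 ± 0.26 with an adjusted p of 0.00729 (limma), and the fold of the means was 5.92. The call was lost without ZT4 replicate 4, where the adjusted p was 0.0634 (limma).

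Cry1, which encodes a cryptochrome that represses CLOCK and BMAL1, was at 27.1, 33.9, 33.3 and 22.3 CPM at ZT0 and at 7.13, 9.44, 8.08 and 5.71 CPM at ZT4. No ZT4 value reached the lowest ZT0 value. The difference was -1.81 ± 0.17 (adjusted p = 0.00655, limma), and the ZT0 mean was 3.84 times the ZT4 mean. Osgin1, the oxidative stress induced growth inhibitor 1 gene, is the member of the 4 that lies outside the clock lists. It was at 31.8, 46.0, 44.8 and 43.3 CPM at ZT0 and at 12.6, 12.5, 7.73 and 7.53 CPM at ZT4. The lowest ZT0 mouse was replicate 1, and it still lay above all ZT4 mice. The difference was -1.96 ± 0.19 (adjusted p = 0.00655, limma). Leaving out ZT0 replicate 1 gave -2.08.

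**Figure D1:**
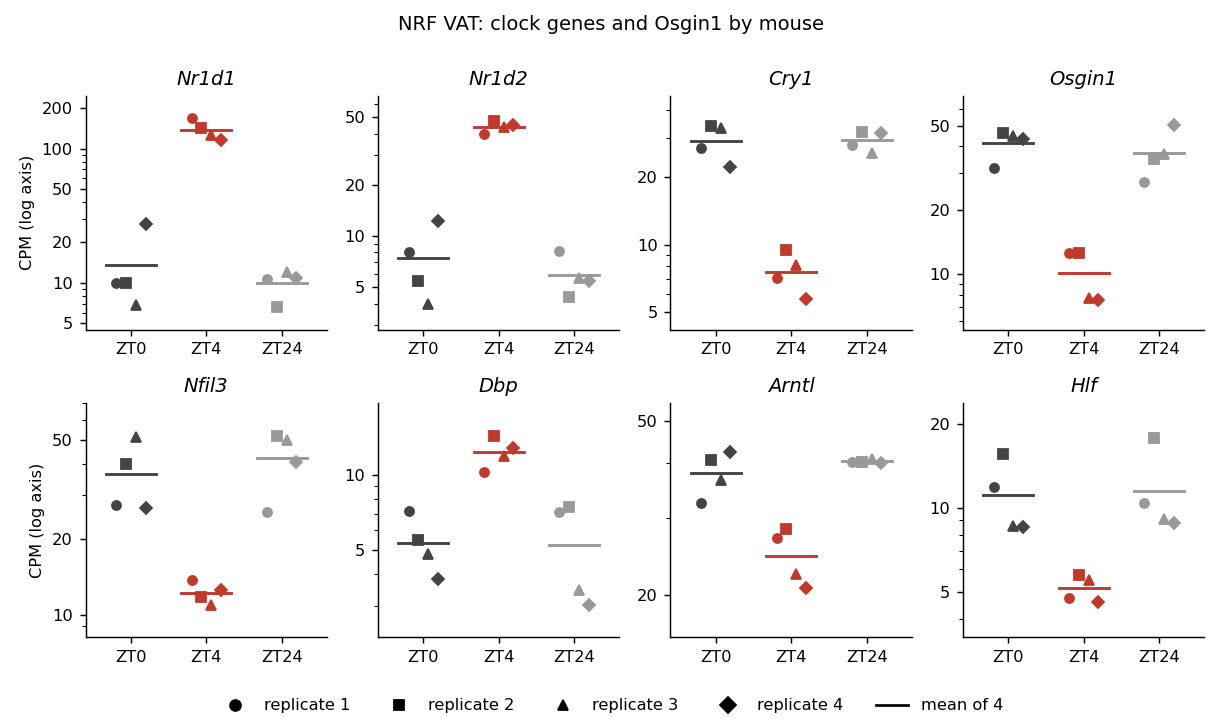
CPM of 8 genes in each NRF mouse at ZT0, ZT4 and ZT24, on a log axis, with a symbol per replicate number and a bar for the mean of 4. Nr1d1, Nr1d2 and Dbp lie higher at ZT4 than in all mice at ZT0 and at ZT24, and Cry1, Osgin1, Nfil3, Arntl and Hlf lie lower.

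The 4 genes lie on different chromosomes, with coordinates from the GENCODE annotation of GRCm38 (mm10). Nr1d1 spans chr11:98767932-98775333 on the minus strand. Nr1d2 spans chr14:18204054-18239127 on the minus strand, Cry1 chr10:85131700-85185064 on the minus strand, and Osgin1 chr8:119434124-119446256 on the plus strand. All 4 are protein-coding genes. Their promoters from RefSeq (GRCm38.p6), 250 bases before to 50 after the start, are shown because Nr1d1, Nr1d2 and Cry1 are known clock targets. The motifs searched, on both strands, are in capitals: CACGTG, the E-box of BMAL1 and CLOCK, CACGTT, a variant of it (AACGTG on the other strand), and AGGTCA, the core hexamer bound by nuclear receptors such as REV-ERB and ROR. The sequences run 5′ to 3′ on the strand of the gene. The RefSeq start of Osgin1 used here lies inside the span given above.
Nr1d1, chr11:98775328-98775627, minus strand: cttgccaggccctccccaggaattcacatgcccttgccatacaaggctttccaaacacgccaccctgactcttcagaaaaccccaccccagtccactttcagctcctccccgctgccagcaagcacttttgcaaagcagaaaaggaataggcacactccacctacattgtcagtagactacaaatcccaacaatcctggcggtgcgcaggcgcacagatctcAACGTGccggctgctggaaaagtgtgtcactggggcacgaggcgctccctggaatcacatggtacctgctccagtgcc
Nr1d2, chr14:18239057-18239356, minus strand: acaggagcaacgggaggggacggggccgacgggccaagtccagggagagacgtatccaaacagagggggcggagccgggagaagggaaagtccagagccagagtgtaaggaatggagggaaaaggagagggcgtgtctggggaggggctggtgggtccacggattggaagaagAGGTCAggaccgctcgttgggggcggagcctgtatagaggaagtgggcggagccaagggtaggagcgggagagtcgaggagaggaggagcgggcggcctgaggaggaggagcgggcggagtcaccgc
Cry1, chr10:85185005-85185304, minus strand: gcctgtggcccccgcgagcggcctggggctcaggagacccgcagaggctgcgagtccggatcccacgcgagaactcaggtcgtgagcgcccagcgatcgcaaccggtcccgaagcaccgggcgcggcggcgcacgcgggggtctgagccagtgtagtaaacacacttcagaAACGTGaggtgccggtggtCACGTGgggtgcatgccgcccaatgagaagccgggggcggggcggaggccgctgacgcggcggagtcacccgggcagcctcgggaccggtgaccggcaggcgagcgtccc
Osgin1, chr8:119436897-119437196, plus strand: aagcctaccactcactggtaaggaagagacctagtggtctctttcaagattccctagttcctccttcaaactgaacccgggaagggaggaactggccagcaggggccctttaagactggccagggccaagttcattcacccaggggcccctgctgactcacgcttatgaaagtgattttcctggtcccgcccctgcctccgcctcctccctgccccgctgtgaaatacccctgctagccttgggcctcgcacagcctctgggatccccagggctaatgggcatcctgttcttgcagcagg

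The Cry1 window held the E-box 60 bases before the start and the variant 79 bases before it. The Nr1d1 window held the variant 28 bases before the start, the Nr1d2 window held AGGTCA 77 bases before the start, and the Osgin1 window held none of the 3. Of 32851 promoters in the table, 7.15% held CACGTG, 4.68% held CACGTT and 16.3% held AGGTCA. Of 23 promoters that belong to 18 of the clock genes, 6 held CACGTG, 3 held CACGTT and 6 held AGGTCA. These matches describe letters in a window, not binding.

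Among 20 measured clock genes, 2 rose, 1 fell and 17 did not pass the test. Among the 5 activators none passed. Arntl, encoding BMAL1, was at 32.5, 40.7, 36.6 and 42.4 CPM at ZT0 and at 27.0, 28.3, 22.4 and 20.8 CPM at ZT4. The groups did not overlap, and the difference of -0.61 ± 0.12 had an adjusted p of 0.302 (limma), or 0.0697 without ZT0 replicate 1. Rora averaged 32.4 and 39.0 CPM (0.25 ± 0.10), Npas2, a CLOCK paralog, 15.7 and 12.5 CPM (-0.32 ± 0.17), and Clock itself 94.5 and 89.3 CPM (-0.08 ± 0.10).

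The Per genes did not share a direction of their means. Per2 was at 17.1, 10.8, 13.1 and 3.44 CPM at ZT0 and at 5.19, 1.42, 4.14 and 2.96 CPM at ZT4. The ZT0 value of replicate 4 lay among the ZT4 values, and the difference of -1.37 ± 0.43 was not called (adjusted p = 0.356, limma). Per1 averaged 26.5 ± 8.32 and 19.7 ± 7.14 CPM and Per3 10.7 ± 3.99 and 12.9 ± 1.5 CPM, with overlapping groups. Cry2, the paralog of Cry1, differed by -0.21 ± 0.13 and also overlapped. Bhlhe40, encoding the repressor DEC1, ranged from 16.8 to 188 CPM at ZT0 and from 9.49 to 46.3 CPM at ZT4, the widest ZT0 spread among the clock genes by the ratio of highest to lowest, and Bhlhe41 from 6.14 to 30.2 CPM and from 4.12 to 6.58 CPM. The high ZT0 value of both belonged to replicate 3. Ciart, another repressor, had 110 reads over the 8 libraries and was not tested.

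Among the 6 clock output genes none passed over the 8 libraries. Nfil3, whose product opposes the PAR bZIP activators at D-box sites and is repressed by REV-ERB, was at 27.5, 40.2, 51.3 and 26.8 CPM at ZT0 and at 13.8, 11.7, 10.98 and 12.6 CPM at ZT4. All ZT4 mice lay below all ZT0 mice, and the difference of -1.45 ± 0.19 fell short of the call (adjusted p = 0.0514, limma). Without ZT0 replicate 1 it was -1.56 (adjusted p = 0.0221). Dbp, a PAR bZIP activator, was at 7.20, 5.50, 4.83 and 3.85 CPM at ZT0 and at 10.2, 14.3, 11.9 and 12.7 CPM at ZT4. Its groups did not overlap either, with a difference of 1.08 ± 0.17 (adjusted p = 0.112, or 0.0221 without ZT0 replicate 1, limma). Hlf, of the same family, averaged 11.1 ± 3.34 and 5.14 ± 0.57 CPM and lay lower in all ZT4 mice (-0.94 ± 0.18), whereas Tef, the last of the family, averaged 49.9 and 52.2 CPM (0.10 ± 0.16). Nampt, the rate-limiting enzyme of NAD salvage, averaged 133 ± 12.5 and 100 ± 13.8 CPM with no overlap (-0.41 ± 0.12), and Usp2, a ubiquitin protease under clock control, 9.73 and 5.67 CPM (-0.67 ± 0.18).

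Over all genes tested, all 4 ZT4 values lay above all 4 ZT0 values for 3.0% and below them for 2.56%. In the 20 clock genes this held for 3 and 5. The median difference of the 20 was -0.42, beside 0.00 over all genes.

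Over the 7 NRF time points, the 4 h from ZT0 to ZT4 held only part of the courses of Nr1d1, Nr1d2, Dbp and Arntl. Nr1d1 averaged 13.5 CPM at ZT0, 138 at ZT4 and 254 at ZT8, its highest mean, and Nr1d2 7.44, 44.0 and 122 CPM on the way to 155 CPM at ZT12. Cry1 had its lowest means at ZT4 and ZT8, 7.59 CPM at both, and its highest at ZT20, 55.2 CPM. Dbp at ZT4, 12.3 CPM, was still far from its highest mean of 256 CPM at ZT12. Arntl was early in its decline, from 38.0 CPM at ZT0 to 24.6 at ZT4, 3.26 at ZT8 and 0.689 CPM at ZT12. Osgin1 went on from 10.1 CPM at ZT4 to 4.30 CPM at ZT8 and was at 43.8 CPM at ZT16, with food back. These means are a description of the other time points, with no test.

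**Figure D2:**
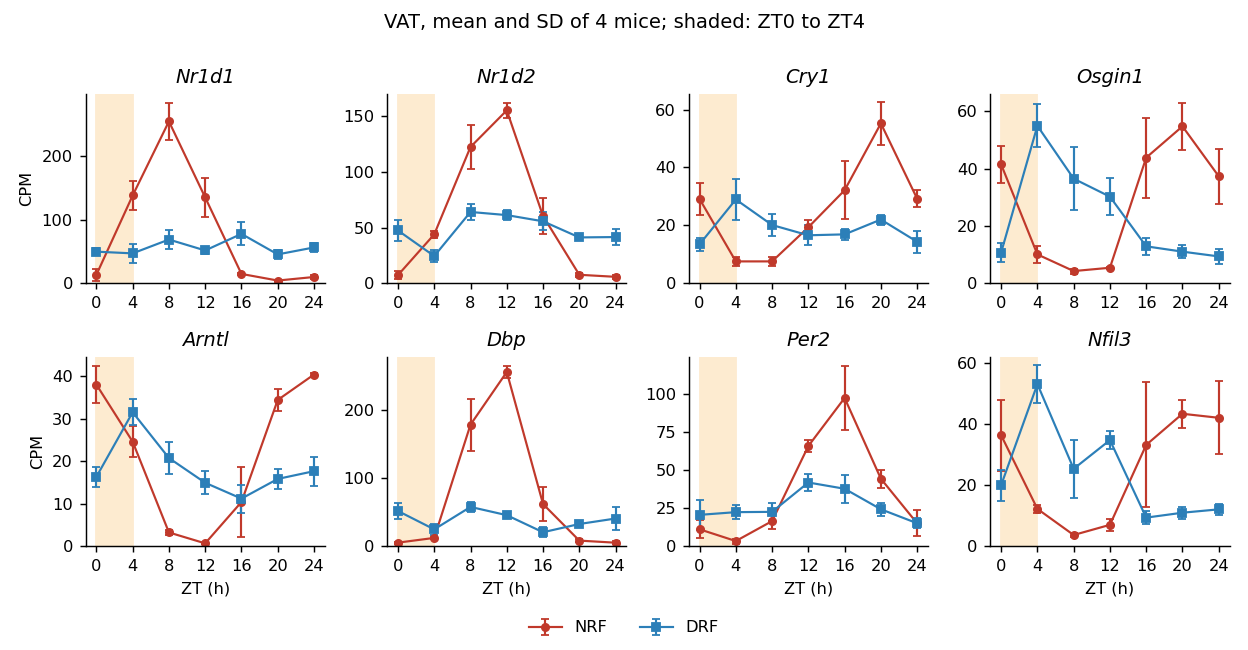
Mean CPM of 8 genes against ZT in hours under NRF (red circles) and DRF (blue squares), with SD over 4 mice as error bars and ZT0 to ZT4 shaded. Under NRF the shaded 4 h hold the rise of Nr1d1 from 13.5 to 138 CPM and the fall of Cry1 from 29.1 to 7.59 CPM.

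The ZT24 mice, also taken at the end of feeding, can be set beside the ZT0 mice for the 4 genes. Nr1d1 was at 6.60 to 12.1 CPM, Nr1d2 at 4.38 to 8.14 CPM, Cry1 at 25.7 to 31.7 CPM and Osgin1 at 27.3 to 50.5 CPM. All 4 were called again in ZT4 against ZT24, with differences of 3.67, 2.73, -1.83 and -1.79. That comparison called 94 genes, 0.665% of those tested, 44 higher and 50 lower.

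A fit that took the spread from all 28 NRF libraries called 84 genes (0.595%) for ZT4 against ZT0, 30 higher (0.212%) and 54 lower (0.382%), and the genes below were named after its values were seen. Plagl1, a zinc-finger transcription factor gene, was at 45.8, 34.6, 25.4 and 36.5 CPM at ZT0 and at 82.0, 64.0, 76.4 and 71.2 CPM at ZT4. The groups lay clearly apart, with a difference of 1.05 ± 0.16 (adjusted p = 0.0187 in the 28-library fit and 0.112 over the 8 libraries, limma). Syne3, encoding the nuclear envelope protein nesprin-3, averaged 13.2 and 28.6 CPM (1.03 ± 0.19). Acvr1c, encoding the ALK7 receptor that restrains lipolysis in adipocytes, was at 97.2 to 161 CPM at ZT0 and at 161 to 214 CPM at ZT4 (0.66 ± 0.16), and Mitf, a transcription factor of lysosomal genes, differed by 0.61 ± 0.11. Against ZT24, Plagl1, Syne3 and Mitf differed by 1.00, 0.82 and 0.30, and none of them passed (adjusted p = 0.0640, 0.0625 and 0.139, limma).

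Among the genes lower in that fit were Nfil3 and Hlf, above. Mfsd12, encoding a lysosomal cysteine transporter, was at 46.6, 88.6, 85.3 and 85.4 CPM at ZT0 and at 43.5, 36.4, 25.6 and 39.5 CPM at ZT4. Its ZT0 replicate 1 lay next to the ZT4 mice, and the difference was -1.04 ± 0.22, or -1.26 without that library. Cdkn2b, encoding a cyclin-dependent kinase inhibitor, differed by -1.27 ± 0.29, Mapkapk3, a stress-activated kinase gene, by -0.90 ± 0.21, and Rassf2 by -0.82 ± 0.17. Against ZT24, Mfsd12 and Cdkn2b differed by -0.995 and -1.01 and did not pass (adjusted p = 0.0566 and 0.0861, limma). Rassf2 passed there, with -1.05 (adjusted p = 0.0184, limma). Dtx4, a ubiquitin ligase gene, was at 101 to 133 CPM at ZT0 and at 56.1 to 70.3 CPM at ZT4 (-0.85 ± 0.12, adjusted p = 0.0896 over the 8 libraries, 0.0371 without ZT0 replicate 1 and 0.0682 in the 28-library fit, limma).

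**Figure D3:**
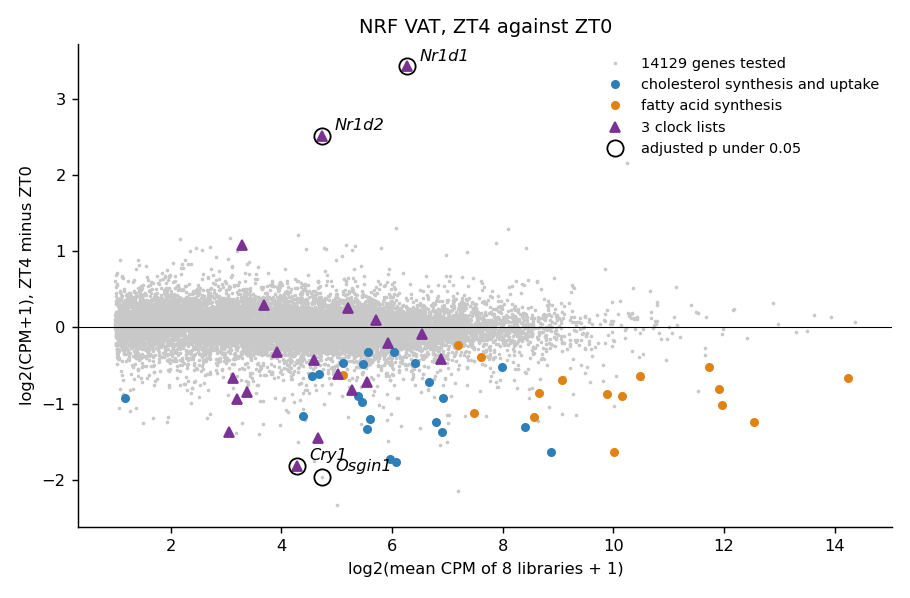
Difference in log2(CPM + 1) between NRF ZT4 and ZT0 against log2 of the mean CPM plus 1, for 14129 genes. The 4 called genes are ringed, the 20 clock genes are triangles, and all 22 cholesterol genes and all 16 fatty acid synthesis genes lie under 0.

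Sterol genes had lower means at ZT4 throughout, and in most of them the mice of the groups overlapped. All 22 measured genes of cholesterol synthesis and uptake were lower on average, with a median difference of -0.92 beside 0.00 over all genes. None was called over the 8 libraries, 18 of 22 had an unadjusted p under 0.05 with the ZT4 mean lower (895 of all genes, 6.33%, did), and 3, Insig1 and Msmo1 among them, were called in the 28-library fit. In 2 of 22 all ZT4 values lay below all ZT0 values, as in 2.56% of all genes. Without ZT0 replicate 1 the median was -1.23, and 1 gene (Stard4) was called.

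Insig1, which holds SREBP in the endoplasmic reticulum and is itself an SREBP target, was at 352, 891, 768 and 782 CPM at ZT0 and at 437, 173, 148 and 179 CPM at ZT4. Replicate 1 of ZT0 and replicate 1 of ZT4 lay between the other mice, and in reverse order. The difference was -1.63 ± 0.37 (adjusted p = 0.334, or 0.0445 in the 28-library fit, limma). Without ZT0 replicate 1 it was -1.93 (adjusted p = 0.0577, limma). Msmo1, a sterol demethylation enzyme gene, was at 35.8, 59.4, 58.7 and 58.6 CPM and at 40.3, 33.2, 17.4 and 24.1 CPM (-0.90 ± 0.25, or -1.08 without ZT0 replicate 1). ZT0 replicate 1 lay lowest of its group in both genes and within the ZT4 range. Sqle, encoding squalene epoxidase, was likewise lowest at ZT0 in replicate 1, at 17.4 CPM against 64.5 to 111 CPM in the others.

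The order of the mice was shared along the list. ZT0 replicate 1 was the lowest ZT0 mouse in 21 of 22 cholesterol genes (95.5%), against 36.0% of all genes, and ZT4 replicate 3 the lowest ZT4 mouse in 20 of 22 (90.9%), against 27.3% of all genes. In the 16 measured genes of fatty acid synthesis each of these held for 14 (87.5%). In the 22 genes of glucose uptake, glycolysis and glycogen described further on, the first held for 20 (90.9%) and the second for 19 (86.4%).

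Genes of fatty acid synthesis spread widely between mice. All 16 measured genes were lower on average at ZT4, with a median of -0.84, or -1.27 without ZT0 replicate 1. None was called, and 4 had an unadjusted p under 0.05 with the ZT4 mean lower, beside 6.33% of all genes. Scd2, a stearoyl-CoA desaturase gene, was at 338, 1559, 2746 and 1373 CPM at ZT0 and at 752, 1037, 88.2 and 306 CPM at ZT4. The groups overlapped widely, and the difference was -1.64 ± 0.80. Acly, whose product makes cytosolic acetyl-CoA, ranged from 809 to 14837 CPM at ZT0 and from 356 to 9164 CPM at ZT4 (-1.24 ± 1.08). Fasn, the fatty acid synthase gene, ranged from 7358 to 34677 CPM and from 3776 to 25186 CPM (-0.66 ± 0.71), and Srebf1, encoding SREBP1, from 337 to 1018 CPM and from 232 to 618 CPM (-0.69 ± 0.37). Acacb, the mitochondrial acetyl-CoA carboxylase gene, was at 285, 400, 813 and 617 CPM and at 332, 279, 143 and 166 CPM, the smallest p of the list (-1.17 ± 0.35, adjusted p = 0.356, limma). Elovl5, a fatty acid elongase gene, was the member without overlap, at 183 to 263 CPM and 158 to 179 CPM (-0.38 ± 0.12). Scd1 was not analysed here because its exon length could not be settled from the values.

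Of 9 triglyceride synthesis genes none was called, and the median was -0.24, or -0.50 without ZT0 replicate 1. It was -0.48 for ZT4 against ZT24. Pck1, the enzyme of glyceroneogenesis and a fasting gene in fat, was at 1452, 265, 58.8 and 743 CPM at ZT0 and at 1362, 831, 3124 and 1925 CPM at ZT4. It was the mirror of Scd2: ZT0 replicate 1 was high and ZT4 replicate 3 highest. The difference was 2.16 ± 0.85, or 2.83 without ZT0 replicate 1, and neither passed (adjusted p = 0.389 and 0.110, limma). Dgat1, which adds the last acyl chain to diacylglycerol, was at 206 to 252 CPM at ZT0 and at 252 to 282 CPM at ZT4 (0.24 ± 0.10), whereas its counterpart Dgat2 ranged from 1274 to 5695 CPM and from 616 to 4215 CPM (-0.84 ± 0.62).

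**Figure D4:**
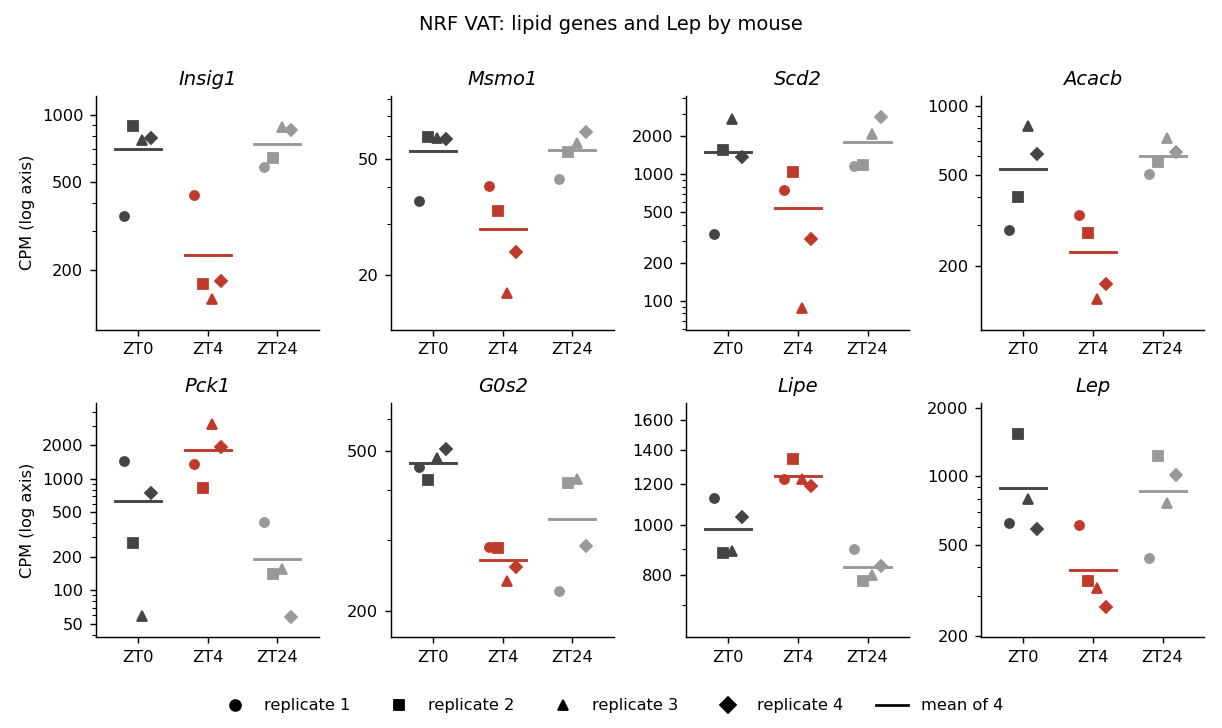
CPM of 7 lipid genes and Lep, the leptin gene, in each NRF mouse at ZT0, ZT4 and ZT24, on a log axis, with a symbol per replicate number and a bar for the mean of 4. ZT0 replicate 1 (circles) lies lowest of its group in Insig1, Msmo1, Scd2 and Acacb and highest in Pck1, whereas the G0s2 groups at ZT0 and ZT4 are tight and apart.

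Among the lipolysis genes, G0s2 came closest to a call. G0s2, an inhibitor of adipose triglyceride lipase, was at 456, 424, 480 and 505 CPM at ZT0 and at 289, 288, 238 and 258 CPM at ZT4. The groups lay apart with ZT0 replicate 1 inside its group. The difference was -0.80 ± 0.10 with an adjusted p of 0.0502 (limma), just outside the threshold, and 0.0477 without ZT0 replicate 1. The ZT24 mice, at 224 to 426 CPM, overlapped the ZT4 mice, so the separation did not hold against that other end-of-feeding group (-0.30, adjusted p = 0.386, limma). Lipe, encoding hormone-sensitive lipase, was at 1127, 885, 891 and 1038 CPM at ZT0 and at 1227, 1341, 1228 and 1193 CPM at ZT4. All ZT4 values were higher, by a difference of 0.35 ± 0.13 (adjusted p = 0.384, limma). Mgll, the monoglyceride lipase gene, also lay higher in all ZT4 mice, at 1288 to 1436 CPM against 1138 to 1245 CPM. Of 8 lipolysis genes none was called, and the median was 0.09, or 0.26 for ZT4 against ZT24. The 7 lipid droplet coat genes had no member with an unadjusted p under 0.05.

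Genes of fatty acid uptake, oxidation and insulin signalling held no call. Among 8 genes of lipoprotein lipase and fatty acid uptake the median was 0.06, or 0.21 for ZT4 against ZT24. Acsl1, the main acyl-CoA synthetase gene of fat, was at 1309, 1105, 1471 and 1495 CPM at ZT0 and at 2277, 1721, 1859 and 1657 CPM at ZT4, with no overlap (0.48 ± 0.17). Among 18 genes of fatty acid oxidation and fuel switching the median was -0.05, or 0.01 without ZT0 replicate 1. It was 0.15 for ZT4 against ZT24. Ppara, encoding the fasting-responsive receptor PPARα, averaged 4.08 ± 1.56 and 6.74 ± 0.48 CPM with no overlap (0.66 ± 0.20), and Cpt1a, which admits fatty acids to mitochondria, 51.0 ± 8.49 and 72.7 ± 13.9 CPM (0.50 ± 0.16). Of 19 insulin signalling and FOXO-responsive genes 15 had higher means at ZT4, with a median of 0.22, and 5 had an unadjusted p under 0.05 with the ZT4 mean higher, beside 5.9% of all genes. They included Pde3b, the phosphodiesterase through which insulin restrains lipolysis (234 and 336 CPM, 0.55 ± 0.20), and Txnip, an inhibitor of glucose uptake (700 and 1138 CPM, 0.77 ± 0.28).

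Glucose genes held no call either. Of 22 genes of glucose uptake, glycolysis and glycogen, 19 had lower means at ZT4, with a median of -0.42, or -0.60 without ZT0 replicate 1. Pfkfb3, encoding the enzyme that makes the phosphofructokinase activator fructose 2,6-bisphosphate, had a higher mean and was the member without overlap. It was at 472, 265, 386 and 408 CPM at ZT0 and at 666, 551, 550 and 596 CPM at ZT4 (0.65 ± 0.17, adjusted p = 0.356, limma). Ppp1r3b, a glycogen-targeting subunit gene, ranged from 33.5 to 632 CPM at ZT0 and from 10.7 to 94.1 CPM at ZT4 (-2.15 ± 0.87).

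Of 14 heat shock and cold-inducible genes 12 had lower means at ZT4, with a median of -0.32, and none was called over the 8 libraries. Hspa8, a constitutive chaperone gene, was at 1080, 1256, 2076 and 1121 CPM at ZT0 and at 714, 506, 893 and 556 CPM at ZT4, with no overlap (-1.03 ± 0.25). Hsph1, encoding its nucleotide exchange factor, was at 49.4, 75.0, 170 and 65.3 CPM and at 47.0, 25.2, 24.5 and 20.6 CPM (-1.49 ± 0.36). Both were called in the 28-library fit (adjusted p = 0.0335 and 0.0318) and not over the 8 libraries. Cirbp, an RNA-binding protein gene induced by cold, lay opposite to them, at 32.2, 32.3, 20.4 and 36.9 CPM and at 42.7, 72.7, 41.3 and 60.1 CPM (0.80 ± 0.22, adjusted p = 0.356, limma), with every ZT4 mouse higher. In the endoplasmic reticulum list 16 of 17 means were lower (median -0.14). Manf, a secreted stress factor gene, averaged 53.7 ± 4.42 and 40.2 ± 6.53 CPM with no overlap (-0.42 ± 0.12).

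In the remaining lists no gene was called over the 8 libraries. Nolc1, a nucleolar assembly gene, was the member of the 20 ribosome biogenesis genes called in the 28-library fit (48.7 and 33.5 CPM, -0.52 ± 0.15). Zbtb16, a glucocorticoid receptor target, was at 31.7, 13.4, 15.9 and 26.2 CPM at ZT0 and at 83.4, 34.04, 42.7 and 32.9 CPM at ZT4, with no overlap (1.09 ± 0.33), whereas the median of the 11 glucocorticoid targets was 0.05. The 20 immediate early genes had a median of 0.11, the 12 amino acid response genes -0.04 and the 13 autophagy genes 0.07. Without ZT0 replicate 1 the amino acid and autophagy medians were -0.01 and 0.18. For ZT4 against ZT24 the immediate early, autophagy and glucocorticoid medians were 0.40, 0.16 and -0.02. Among 8 adipokine genes, Lep was at 624, 1538, 796 and 588 CPM at ZT0 and at 611, 348, 326 and 269 CPM at ZT4, with 1 ZT4 mouse among the ZT0 values (-1.15 ± 0.33, adjusted p = 0.356, limma).

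The onset of the fast in darkness, DRF ZT12 to ZT16, served as the comparison in which food was withdrawn at lights off. It differs from NRF ZT0 to ZT4 in light, clock hour and regimen together, and these cannot be told apart. The paper reports that Nr1d1 and Dbp lost their rhythm in VAT under DRF. DRF changed 1355 genes (9.59%) over these 4 h in its own 8 libraries (518 higher, 3.67%, and 837 lower, 5.92%). The difference between the NRF and the DRF change passed for 13 genes (0.092%), 9 more positive under NRF (0.0637%) and 4 more negative (0.0283%). Leaving out the libraries numbered 1, 2, 3 or 4 in all groups left 9, 0, 1 and 6 genes, of which 4, 0, 1 and 5 were among the 13. The content of the list thus changed with the mice left out, and at number 2 no gene passed in limma while 1159 had an unadjusted p under 0.05.

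Of the 13, 4 were clock genes. Nr1d1 differed by 0.55 ± 0.16 under DRF, and the NRF change exceeded it by 2.88 ± 0.41 (adjusted p = 0.00674, limma). Nr1d2 and Cry1 differed by -0.14 ± 0.10 and 0.04 ± 0.14 under DRF, and the NRF changes differed from these by 2.66 ± 0.30 and -1.85 ± 0.23. Dbp was lower at DRF ZT16 (-1.17 ± 0.21) and higher at NRF ZT4, a difference of 2.25 ± 0.29 (adjusted p = 0.00408, limma). The other clock genes gave no called difference. Nfil3 differed by -1.45 ± 0.19 under NRF and by -1.80 ± 0.13 under DRF (difference 0.35 ± 0.25), and Hlf by -0.94 ± 0.18 and -0.88 ± 0.08 (difference -0.06 ± 0.20). Osgin1 fell in both, by 1.96 and by 1.17 on the log2 scale, and the difference of -0.79 ± 0.28 was not called (adjusted p = 0.234, limma).

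The remaining 9 were named after their values were seen. Hspa4l, a chaperone gene of the Hsp110 family, was at 41.5 to 58.8 CPM at NRF ZT0 and at 26.5 to 34.7 CPM at NRF ZT4 (-0.67 ± 0.13) but differed by 0.63 ± 0.14 under DRF. Cygb, the cytoglobin gene, was at 51.2 to 55.7 CPM and 63.3 to 79.7 CPM under NRF (0.42 ± 0.09) and differed by -0.47 ± 0.10 under DRF. Angptl2, Lrrc17, Gpr146, Mri1 and Fam171a2 had NRF differences of 0.12 to 0.31 and DRF differences of -0.91 to -0.44. Aqp11 and Stac had NRF differences of -0.20 and -0.43 and DRF differences of 0.91 and 0.94.

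No member of the other pathway lists passed this difference. Among 22 cholesterol genes the median was -0.92 under NRF and -0.25 under DRF, and among 16 fatty acid synthesis genes -0.84 and 0.17. Pck1 differed by 2.16 ± 0.85 and 3.44 ± 0.45, and Txnip by 0.77 ± 0.28 and 1.89 ± 0.11. G0s2 differed by -0.80 ± 0.10 and -0.78 ± 0.16 (difference -0.02 ± 0.20). Lep differed by -1.15 ± 0.33 and -1.23 ± 0.26. For Pck1 the difference between the fasts was -1.28 ± 1.07 (adjusted p = 0.654, limma).

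**Figure D5:**
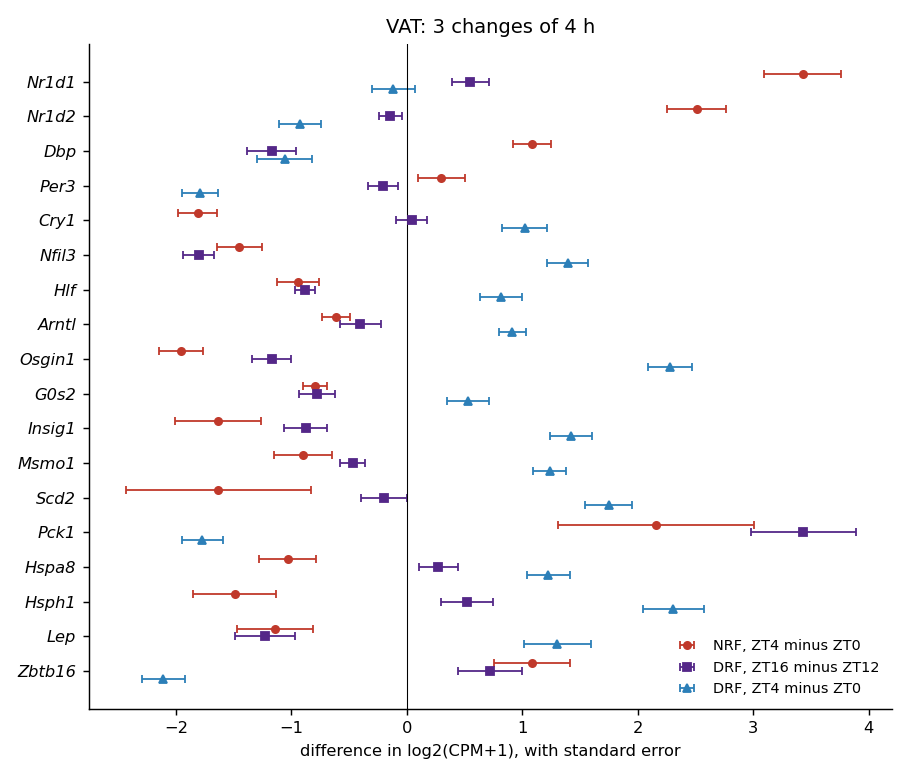
Differences in log2(CPM + 1), with standard errors, for 18 genes over 4 h: NRF ZT4 minus ZT0 (red circles), DRF ZT16 minus ZT12 (purple squares) and DRF ZT4 minus ZT0 (blue triangles). The difference between the fasts passed for Nr1d1, Nr1d2, Cry1 and Dbp among these genes, and in all 18 the DRF ZT0 to ZT4 estimate has the opposite sign to the NRF estimate, with that of Nr1d1, -0.12 ± 0.19, within its error of 0.

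DRF ZT0 to ZT4 covers the same hours with food arriving. The median difference of the cholesterol genes was 1.10 there, against -0.92 under NRF, and that of the fatty acid synthesis genes 0.71, against -0.84. In its own 8 libraries DRF changed 2938 genes, 20.8% (1748 higher, 12.4%, and 1190 lower, 8.42%). The difference between the NRF and the DRF change passed for 3486 genes (24.7%), 1416 more positive under NRF (10%) and 2070 more negative (14.7%). Leaving out the libraries numbered 2, 3 or 4 in all groups left 1602, 1746 and 1574 genes, and leaving out number 1 left 3690.

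Of the 22 cholesterol genes 21 passed that difference, each more negative under NRF. Insig1 differed by -1.63 ± 0.37 under NRF and by 1.42 ± 0.18 under DRF (difference -3.06 ± 0.45, adjusted p = 0.000563, limma). Of 16 fatty acid synthesis genes 6 passed, of 20 ribosome biogenesis genes 15 and of 17 endoplasmic reticulum genes 9, each more negative under NRF. Over all genes tested 14.7% passed as more negative under NRF and 10% as more positive. The ribosome biogenesis median was -0.20 under NRF and 0.49 under DRF, and the endoplasmic reticulum median -0.14 and 0.42. In the DRF libraries alone 15 and 10 genes of these 2 lists were called, all higher at ZT4, whereas none was called under NRF. In the heat shock and cold-inducible list 9 of 14 were more negative and Cirbp was more positive, where it differed by 0.80 ± 0.22 under NRF and by -1.28 ± 0.17 under DRF. Hspa8 differed by -1.03 ± 0.25 and 1.23 ± 0.19. Of 19 insulin and FOXO-responsive genes 9 were more positive under NRF and 2 more negative. Pck1 (2.16 ± 0.85 and -1.77 ± 0.18) and Zbtb16 (1.09 ± 0.33 and -2.11 ± 0.18) also passed, as did Lep in the opposite direction (-1.15 ± 0.33 and 1.30 ± 0.29).

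Of the 20 clock genes 14 passed, 6 more positive and 8 more negative under NRF, beside 10% and 14.7% of all genes. Nr1d1 differed by -0.12 ± 0.19 between DRF ZT0 and ZT4 and by 3.43 ± 0.33 under NRF (difference 3.55 ± 0.42). Nr1d2, Cry1, Nfil3, Hlf, Arntl and Dbp differed in opposite directions under NRF and DRF, with Cry1 at -1.81 ± 0.17 under NRF and 1.02 ± 0.19 under DRF. Osgin1 showed the widest gap of the genes named here, -1.96 ± 0.19 against 2.28 ± 0.19 (difference -4.24 ± 0.29, adjusted p = 1.79e-06, limma). G0s2 differed by -0.80 ± 0.10 and 0.53 ± 0.18, and the difference of -1.32 ± 0.21 passed.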

How the data were processed

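RNA of 56 VAT samples was sequenced by the authors as unstranded poly-A libraries. Per the submitters' processing notes the tools included HISAT2 2.0.5 and featureCounts 1.5.0-p3, with build mm10. The deposited values are named TPM by the authors but are a score: log2(1 + CPM), with CPM the read counts per 1000000 of an effective library size (36.4 to 46.9 M for the 8 libraries), scaled by a library constant and by the inverse of each gene's exonic length. They are therefore not comparable between genes. Whole reads were recovered from them with exon lengths of GENCODE M21: 25050 of 25939 genes were whole (within 0.02 reads) with the annotated length, a length that made the values whole was found for 882, 6 had too many reads for this test, and 1 was not resolved. With the annotated length of every gene 97.6% of values were whole, against 4% by chance.

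Genes with a mean of at least 1 CPM over the 8 libraries were tested with limma 3.58.1 in R 4.3.3 on log2(CPM + 1), with an intensity trend, over the 4 ZT0 and 4 ZT4 libraries. Differences between regimens were interaction terms over 16 libraries. P-values were Benjamini-Hochberg adjusted over 14129 genes, with a threshold of 0.05. On simulated data for NRF ZT0 to ZT4 (14039 genes), 25 of 50 genes changed 1.5-fold were called, 43 of 50 changed 2-fold, 48 of 50 changed 4-fold and 50 of 50 changed 8-fold, with 4 other genes. Whether these shares hold in the mice was not tested. In the 8 libraries Nfil3, Dbp and Plagl1 differed by -1.45, 1.08 and 1.05 on the log2 scale, with no overlap. None of them was called (adjusted p = 0.0514, 0.112 and 0.112, limma). Genes named were the 10 largest rises and falls among called, non-overlapping genes of at least 5 CPM, the clock list members, up to 4 called members of each other list, Dgat1 and Lipe, and examples chosen after their values were seen. The members and lists were chosen with earlier results of these data known. Other filters, pseudocounts, scalings, fits and left-out libraries were tried. Motifs were searched in RefSeq promoters, which were found for 18 of the clock genes. Some members of the lists are counted but not reported by name here.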

Additional observations from a re-analysis of the deposited data

Results flagged for a closer look

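In 11 of 194 groups of 4 values examined, the highest or lowest mouse stood far from the other 3 (Dixon's test, which chance meets in about 1 in 20 groups). In 6 of the 11 the mouse was ZT0 replicate 1, lowest each time. It held 31.8 CPM of Osgin1 (43.3 to 46.0 in the others), 46.6 CPM of Mfsd12 (85.3 to 88.6), 352 CPM of Insig1 (768 to 891), 28.1 CPM of Mapkapk3 (46.4 to 51.0), 35.8 CPM of Msmo1 (58.6 to 59.4) and 12.2 CPM of Acsl3, an acyl-CoA synthetase gene (30.4 to 35.4). The others were Cygb in ZT0 replicate 2 (55.7 CPM against 51.2 to 51.6), Ccn3, a matricellular protein gene, in ZT4 replicate 3 (28.7 against 19.1 to 20.3), Bnip3l, a mitophagy receptor gene, in ZT4 replicate 3 (208 against 160 to 166), Angptl2 in ZT4 replicate 4 (149.7 against 132 to 134) and Lpl, the lipoprotein lipase gene, in ZT4 replicate 1 (9274 against 7714 to 7830).

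The NRF change differed from the DRF ZT12 to ZT16 change, by the interaction term in limma, for 13 genes. On the log2 scale the differences were 2.88 for Nr1d1, 2.66 for Nr1d2, 2.25 for Dbp, 1.15 for Lrrc17, 1.03 for Fam171a2, 0.88 for Cygb, 0.75 for Angptl2, 0.71 for Mri1 and 0.69 for Gpr146. They were -1.85 for Cry1, -1.37 for Stac, -1.30 for Hspa4l and -1.11 for Aqp11.

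The NRF change differed from the DRF ZT0 to ZT4 change, by the same kind of term, for 22 of the 28 genes examined. Over all genes tested it did for 24.7%. Differences above 0 were 3.93 for Pck1, 3.55 for Nr1d1, 3.44 for Nr1d2, 3.19 for Zbtb16, 2.14 for Dbp, 2.09 for Per3, 2.08 for Cirbp, 1.29 for Per1 and 0.89 for Rora. Differences below 0 were -4.24 for Osgin1, -3.06 for Insig1, -2.84 for Nfil3, -2.83 for Cry1, -2.45 for Lep, -2.26 for Hspa8, -1.97 for Usp2, -1.76 for Hlf, -1.53 for Arntl, -1.32 for G0s2, -0.72 for Nampt, -0.67 for Clock and -0.57 for Cry2.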

How the results depend on the processing

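The 4 calls between NRF ZT0 and ZT4 became 84 with the spread of 28 NRF libraries, 94 with ZT24 as the start, 1 with a replicate block and 0 on the values as deposited (limma; 1485 genes had an unadjusted p under 0.05). In fits added after seeing the data there were 182 with all 56 libraries and 50 with ZT0 and ZT24 together as the start. Filters, pseudocount, scalings, the trend and a threshold of 0.01 gave 4 to 6. Leaving out single libraries gave 3 to 22, with 22 without ZT0 replicate 1. The 13 differences from DRF ZT12 to ZT16 became 86 with all 56 libraries, 4 with the replicate block and 0 to 9 without the libraries of a number (0 without number 2, 1 without number 3, 6 without number 4). The 3486 differences from DRF ZT0 to ZT4 ranged from 1574 to 3690 without the libraries of a number (1602 without number 2, 1746 without number 3, 1574 without number 4) and were 4520 with all 56 libraries, 2345 with the replicate block and 4435 with ZT24 in place of ZT0, 2515 of these shared with the 3486. The causes were not tested. Replicate numbers did not pair the mice: the correlations of same-numbered deviations were -0.19, 0.13, -0.37 and 0.15. The block left Cry1 called and took Nr1d1 and Nr1d2 to an adjusted p of 0.0715 and Osgin1 to 0.0903 (limma). Of 97 genes named or listed for the NRF change, no value changed sign past the threshold. Over all settings 2025 values stayed on their side of the threshold, most of them uncalled in both, 99 passed where the reported one did not, and 8 lost the call. Of 22 settings Cry1 was called in 21, Osgin1 and Nr1d1 in 20 and Nr1d2 in 19. For the difference from DRF ZT12 to ZT16 (30 genes) the values that stayed on their side, newly passed and lost the call numbered 214, 0 and 54, and for that from DRF ZT0 to ZT4 (28 genes) 292, 9 and 7. Lipid genes such as Scd2 and Pck1 had standard errors of 0.80 and 0.85 with 4 mice per group, which limits the precision of their differences.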
